A study of Mus musculus with 2 samples.

Results

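The mouse genes described are 9 that act beside AID, the deaminase of activated B cells, or belong to its enzyme family: the deaminases Apobec1 and Apobec3, the transcription factors Supt5, Supt4a and Supt6, the RNA exosome subunits Exosc3 and Exosc10, the RNA-binding protein gene Ptbp2 and the abasic-site protein gene Hmces. They were given by symbol and found by their Ensembl identifiers among 51840 genes, most of them named from GENCODE M21, and all 9 were present. RNA had been sequenced from the library labelled Lig4-/- CH12F3 and from the CH12F3 library, with 1 library per line. CH12F3 comes from a mouse B cell lymphoma, makes IgM and can be induced to switch to IgA in culture. DNA ligase IV, the product of Lig4, seals breaks in nonhomologous end joining. Both lines were grown in RPMI medium with 10% fetal serum, and the labels name no stimulus, no clone number and no number of passages for either line. The values are the authors' FPKM, fragment numbers relative to transcript length and to library size, so levels of different genes can be set side by side. The trend with the share of G and C in transcripts, described below, bears on such comparisons. With 1 library per line no spread between replicates could be estimated and no test was made, and every difference is a description of these 2 libraries. Read depth was not given, so no value carries a counting interval.

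AID turns cytosine into uracil in single-stranded DNA at immunoglobulin switch regions and variable segments, and it needs transcription to open that DNA. Spt5, with its small partner Spt4, forms the DSIF complex that accompanies stalled RNA polymerase II and binds AID, and the RNA exosome degrades the nascent RNA so that both strands become accessible. Apobec1 and Apobec3 are deaminases of the same family with other known substrates, PTBP2 has been found with AID at switch regions, and HMCES forms a covalent bond with abasic sites in single-stranded DNA and has been tied to end joining in class switching.

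The 9 genes spanned more than 3 orders of magnitude, from Supt4a at 190.02 FPKM in the library labelled Lig4-/- and 252.7 FPKM in the CH12F3 library to Hmces at 0.04 and 0.07 FPKM in the same libraries. Of the 9, 8 were expressed, meaning a mean over both libraries of at least 1 FPKM, and Hmces was not. The log2 ratio of a gene, with 1 FPKM added to both values, is that of the library labelled Lig4-/- over CH12F3. Exosc3 and Ptbp2 had the highest log2 ratios of the 8, at 0.71 and 0.81, and Supt5 had the lowest, at -0.58. On this scale none of the 8 was 2-fold higher in the library labelled Lig4-/-, where 21.0% of all 11437 expressed genes were, and none was 2-fold lower, where 4.09% of expressed genes were. Apobec1, Exosc3, Exosc10 and Ptbp2 lay above 0 and Apobec3, Supt5, Supt4a and Supt6 lay below it, against 58.3% of expressed genes above 0 and 41.7% below. The median log2 ratio was -0.09 over the 8 genes and 0.17 over all expressed genes.

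**Figure D1:**
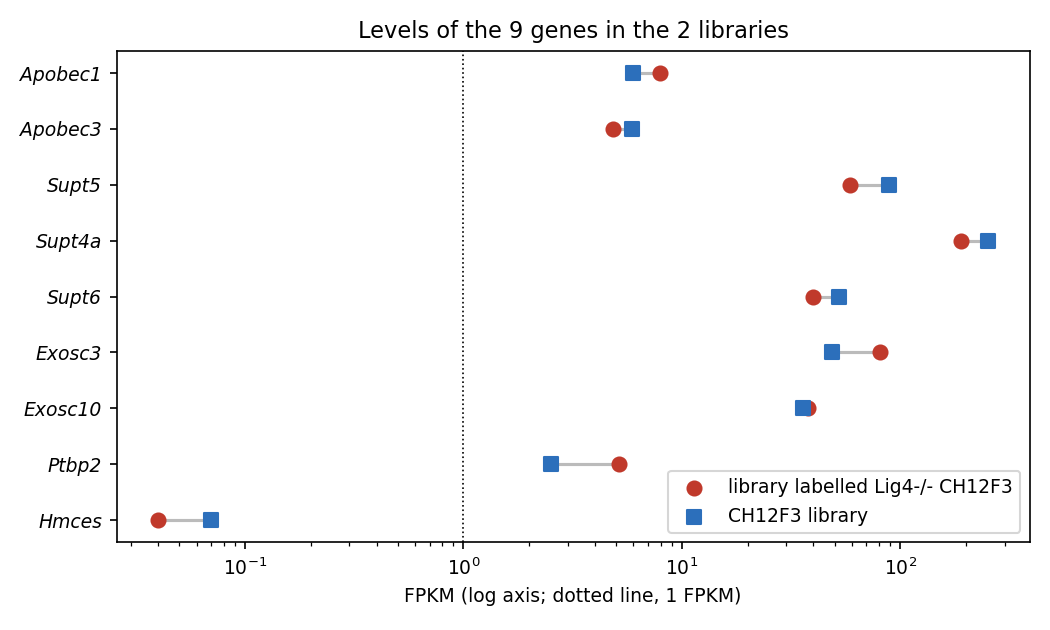
FPKM of the 9 genes on a log axis, with 1 point per library (circles, library labelled Lig4-/- CH12F3; squares, CH12F3 library) and no replicates. The 3 transcription factor genes lie lower in the library labelled Lig4-/-, Exosc3 and Ptbp2 lie higher, and Hmces lies below 0.1 FPKM in both.

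Lig4 itself was listed at 0.64 FPKM in the library labelled Lig4-/- and at 0.13 FPKM in the CH12F3 library, so the label was not borne out by a lower value, and both values lay under the expression threshold. Its log2 ratio of 0.54 was -0.57 and -0.65 after the 2 G+C adjustments described below, and no direction is read from values this low. Directions therefore rest on the label. Markers of B cells were present in both libraries, with 9 of 9 expressed and a summed level of 10368 FPKM in the library labelled Lig4-/- and 6649 FPKM in the CH12F3 library. Ighm made up 9324.63 and 5142.16 FPKM of these sums, and without it the other 8 summed to 1043 FPKM in the library labelled Lig4-/- and 1507 FPKM in the CH12F3 library. Summed levels of 5 T cell markers were 4.85 and 3.12 FPKM in the same libraries, of 5 myeloid markers 31.4 and 46.3 FPKM, of 4 fibroblast markers 0.14 and 0.31 FPKM, and of 3 erythroid markers 23.6 and 30.5 FPKM, all of the last from Hba-a1. Of the T cell markers Trac and Cd3d were expressed, and Cd3e was at 0 in the library labelled Lig4-/-. Of the myeloid markers Cd68 made up most, at 21.66 and 41.06 FPKM in the same libraries, while the other 4 lay between 1.07 and 4.07 FPKM in the library labelled Lig4-/- and between 0.69 and 1.94 FPKM in the CH12F3 library. Of the fibroblast markers Col3a1 and Pdgfra were at 0 in both libraries and Col1a2 was at 0 in the library labelled Lig4-/-. The part of such RNA in the values of the 9 genes was not tested.

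The log2 ratio of expressed genes followed the share of G and C in their transcripts, with a Spearman's rho of -0.64 across 11404 genes, which are not independent replicates. The median log2 ratio was 1.36 in the decile of genes poorest in G and C and -0.41 in the richest decile. The log2 ratios of the 8 genes and the medians of the lists are therefore also given after a smooth curve on G+C content was subtracted, once with the longest annotated transcript of a gene and once with its longest protein-coding transcript. The second choice, added after the data were seen, matters for Ptbp2 and Apobec3, whose longest annotated transcripts retain introns and have no coding annotation. Among the 8 expressed genes the first adjustment left 2 above 0 and 6 below, with a median of -0.23, and the second also left 2 above and 6 below, with a median of -0.27. The median of all expressed genes was -0.012 after the first. The shares of all expressed genes above and below 0 were not counted after the adjustments. No gene of the 8 was 2-fold apart after either, where 5.76% of expressed genes were 2-fold higher and 5.98% 2-fold lower after the first, and 5.42% in each direction after the second.

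**Figure D2:**
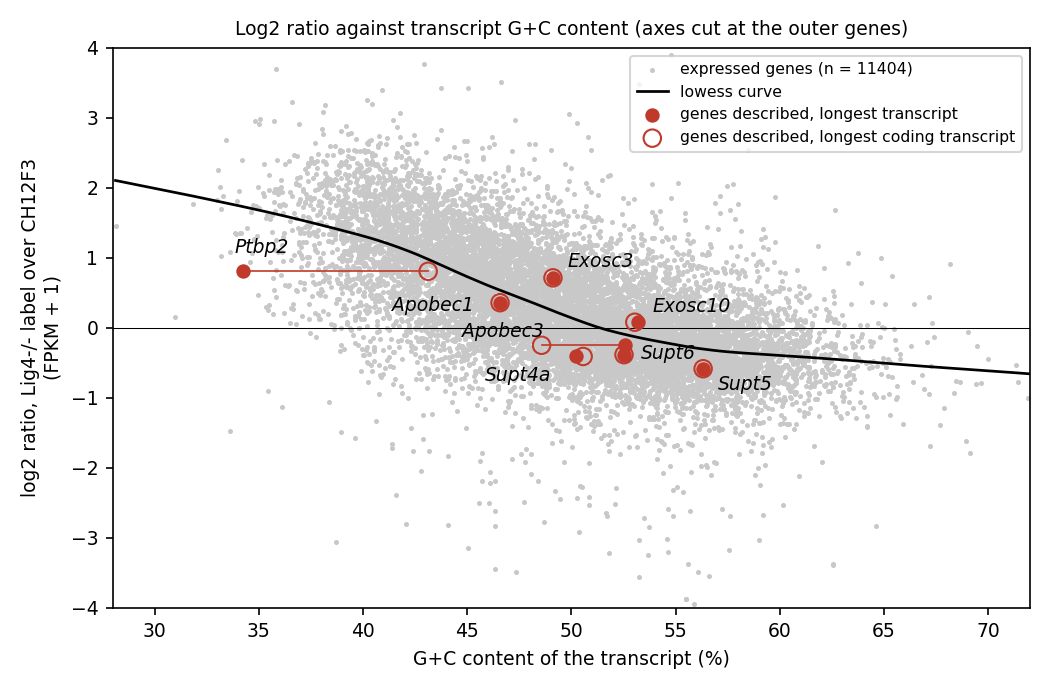
Log2 ratio (library labelled Lig4-/- over CH12F3, FPKM + 1) against transcript G+C content for 11404 expressed genes (grey), with the lowess curve in black; 36 genes lie outside the axes. The 8 expressed genes are in red, filled at the G+C content of the longest transcript and open at that of the longest coding transcript; Ptbp2 moves from 34.2% to 43.1% and lies below the curve at both.

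Supt5, Supt4a and Supt6 were each lower in the library labelled Lig4-/-, by less than 2-fold, before and after the adjustments. Supt5 (ENSMUSG00000003435, chromosome 7, positions 28314891 to 28338746, minus strand, GRCm38) encodes the large DSIF subunit. It was at 59.05 FPKM in the library labelled Lig4-/- and 89.05 FPKM in the CH12F3 library, a log2 ratio of -0.58 that was -0.28 after either G+C adjustment. Supt4a (ENSMUSG00000020485, chromosome 11, positions 87737552 to 87743623, plus strand) encodes the small DSIF subunit. It was at 190.02 FPKM in the library labelled Lig4-/- and 252.7 FPKM in the CH12F3 library, a log2 ratio of -0.41 that was -0.53 and -0.54 after the adjustments. The mRNA of the small subunit thus stood above that of the large one in both libraries, 3.22 times as high in the library labelled Lig4-/- and 2.84 times in the CH12F3 library. Such ratios within a library do not depend on how the libraries are scaled to each other. These and the later ratios between genes were not adjusted for G+C content, however. After the first adjustment Supt4a, at -0.53, lay further below 0 than Supt5, at -0.28, so which library had the larger ratio depended on the adjustment.

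Supt6 (ENSMUSG00000002052, chromosome 11, positions 78206746 to 78245987, minus strand) encodes Spt6, a histone chaperone that travels with elongating RNA polymerase II. It was at 39.89 FPKM in the library labelled Lig4-/- and 52.35 FPKM in the CH12F3 library, a log2 ratio of -0.38 that was -0.29 and -0.33 after the adjustments. Relative to Supt5, without adjustment for G+C content, it was 0.676 times as high in the library labelled Lig4-/- and 0.588 times in the CH12F3 library. After the first adjustment the log2 ratios of both genes were close, Supt6 at -0.29 and Supt5 at -0.28. All 3 genes kept a log2 ratio below 0 under each of the 8 alternative settings that could move a single gene's ratio (pseudocounts, rescalings and adjustments), between -0.76 and -0.28 for Supt5, -0.58 and -0.32 for Supt4a, and -0.55 and -0.29 for Supt6.

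Other transcripts share sequence with these genes. Gm44709, annotated on the opposite strand within Supt5, was at 31.45 FPKM in the library labelled Lig4-/- and 35.84 FPKM in the CH12F3 library, and 375 of its bases match the longest coding Supt5 transcript exactly. Sdf2, which overlaps the start of Supt6 on the opposite strand by 242 bases, was at 56.71 and 87.81 FPKM, in the same order. The sources used here do not say whether the counting used strand, so fragments of these pairs may have been assigned to either partner. The processed pseudogenes Supt4b, which matches Supt4a at 99.1% over 351 bases, and Gm17822, at 90.6% over 351 bases, were listed at 0 in both libraries. Dcaf10, which overlaps Exosc3 on the opposite strand by 632 bases, was at 7.32 FPKM in the library labelled Lig4-/- and 5.68 FPKM in the CH12F3 library, and Cbx7, which overlaps Apobec3 by 100 bases on the opposite strand, was at 5.30 and 4.83 FPKM. Gm12585 within Exosc3, Gm13204 within Exosc10 and Gm43300, Gm42664 and Gm42804 within Ptbp2 were listed at 0.30 FPKM or less in both libraries, and D730005E14Rik, which overlaps Apobec3, was not analysed here.

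The promoters of both DSIF genes are printed because their transcripts were lower together, with those of Hmces and Apobec1 beside them as the gene listed near 0 and a deaminase. Each is 300 bases from RefSeq on GRCm38.p6, from 250 before to 50 after the annotated start, 5′ to 3′ on the strand of the gene, with CpG dinucleotides in capitals. They lie at chr7:28338670-28338969 (minus), chr11:87737301-87737600 (plus), chr6:87913726-87914025 (plus) and chr6:122602395-122602694 (minus).
Supt5: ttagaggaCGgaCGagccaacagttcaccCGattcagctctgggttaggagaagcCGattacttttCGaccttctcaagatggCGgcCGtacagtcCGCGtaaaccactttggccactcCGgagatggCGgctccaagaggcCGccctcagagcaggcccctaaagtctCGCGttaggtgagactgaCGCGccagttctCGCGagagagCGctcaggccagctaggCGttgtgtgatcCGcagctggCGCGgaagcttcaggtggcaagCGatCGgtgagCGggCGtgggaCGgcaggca
Supt4a: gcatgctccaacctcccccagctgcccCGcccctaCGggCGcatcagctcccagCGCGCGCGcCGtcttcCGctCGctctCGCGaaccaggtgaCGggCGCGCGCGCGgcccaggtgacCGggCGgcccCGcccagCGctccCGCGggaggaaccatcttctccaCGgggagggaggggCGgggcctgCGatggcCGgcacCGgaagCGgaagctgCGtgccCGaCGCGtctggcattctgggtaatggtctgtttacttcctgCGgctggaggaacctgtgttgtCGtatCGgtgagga
Hmces: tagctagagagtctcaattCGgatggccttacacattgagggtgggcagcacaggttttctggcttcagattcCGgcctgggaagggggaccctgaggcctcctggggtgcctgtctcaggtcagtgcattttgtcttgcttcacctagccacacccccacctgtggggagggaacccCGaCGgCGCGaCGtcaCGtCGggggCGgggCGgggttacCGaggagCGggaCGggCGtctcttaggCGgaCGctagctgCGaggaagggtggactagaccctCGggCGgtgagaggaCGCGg
Apobec1: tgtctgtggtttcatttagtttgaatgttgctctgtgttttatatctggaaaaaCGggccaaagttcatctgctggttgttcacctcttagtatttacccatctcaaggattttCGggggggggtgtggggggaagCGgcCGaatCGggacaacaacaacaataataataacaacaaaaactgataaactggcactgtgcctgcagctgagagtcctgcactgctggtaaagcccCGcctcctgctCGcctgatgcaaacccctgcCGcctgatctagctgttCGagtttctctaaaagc

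The Supt4a promoter held 37 CpG dinucleotides, that of Supt5 28, that of Hmces 22 and that of Apobec1 9, where the median over 32841 RefSeq promoters of this length was 7. Their G+C contents were 71.0%, 61.3%, 64.3% and 48.3% in the same order, where the median over all promoters was 52.7%. The Hmces promoter was thus nearly as rich in CpG as that of the well-expressed Supt6, with 24, although Hmces was listed near 0. The letters GGGCGG or CCGCCC, the GC box on either strand, occurred 4 times in the Supt4a promoter, 3 times in that of Hmces and once in that of Supt5, and not in that of Apobec1; 35.7% of all promoters held at least 1. TATAAA on either strand occurred in the Apobec1 promoter and in 1 of the 2 Apobec3 promoters and in none of the other 9 printed or measured for these genes, where 13.6% of all promoters held it. These are matches of letters and show no binding.

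**Figure D3:**
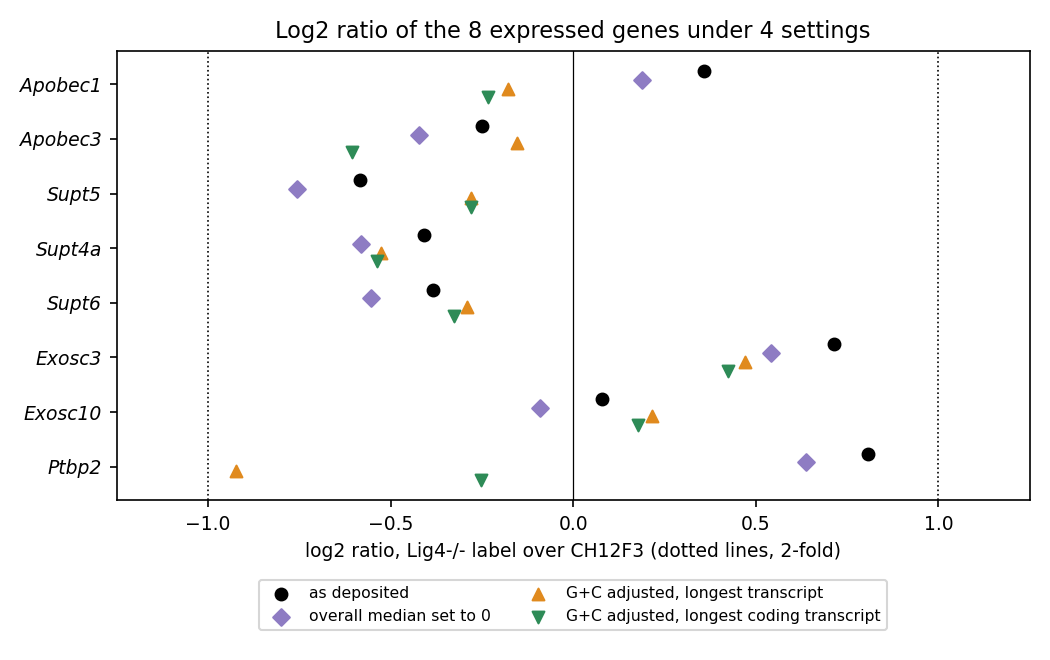
Log2 ratio (library labelled Lig4-/- over CH12F3) of the 8 expressed genes as deposited, with the overall median set to 0, and after each G+C adjustment. Supt5, Supt4a, Supt6 and Apobec3 lie below 0 and Exosc3 above 0 under all 4 settings, whereas Apobec1, Exosc10 and Ptbp2 change sides.

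Exosc3 stood higher in the library labelled Lig4-/-, by less than 2-fold, and Exosc10 was nearly level. Exosc3 (ENSMUSG00000028322, chromosome 4, positions 45316613 to 45342732, minus strand) encodes a cap subunit of the RNA exosome. It was at 80.39 FPKM in the library labelled Lig4-/- and 48.64 FPKM in the CH12F3 library, a log2 ratio of 0.71 that was 0.47 and 0.42 after the adjustments and stayed above 0 under the same 8 settings. Exosc10 (ENSMUSG00000017264, chromosome 4, positions 148558429 to 148582401, plus strand) encodes the nuclease attached to the nuclear exosome. It was at 37.75 FPKM in the library labelled Lig4-/- and 35.67 FPKM in the CH12F3 library, a log2 ratio of 0.08 that was -0.091 with the overall median set to 0 and 0.22 and 0.18 after the adjustments. Exosc3 was 2.13 times as high as Exosc10 in the library labelled Lig4-/- and 1.36 times in the CH12F3 library. The order of Exosc3 and Supt5 as deposited also differed, since Exosc3 was 1.36 times as high as Supt5 in the library labelled Lig4-/- and 0.546 times in the CH12F3 library. Neither pair of ratios was adjusted for G+C content. After the first adjustment the log2 ratios were 0.47 for Exosc3, 0.22 for Exosc10 and -0.28 for Supt5. Whether the order of Exosc3 and Supt5 would still differ after an adjustment was not tested.

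Within the exosome core of 9 subunits, Exosc3 ranked below Exosc5 alone in the library labelled Lig4-/- and below Exosc5 and Exosc2 in the CH12F3 library. The core ranged between 13.75 and 100.19 FPKM in the library labelled Lig4-/- and between 6.39 and 160.65 FPKM in the CH12F3 library. The 3 cap genes did not share a direction. Exosc1 was at 22.52 and 11.20 FPKM and Exosc2 at 55.71 and 70.79 FPKM in the library labelled Lig4-/- and the CH12F3 library. In the core 6 genes lay above 0 and 3 below, where 58.3% of all expressed genes lay above 0 and 41.7% below. The median log2 ratio of the core was 0.71, and it was -0.18 after the first adjustment and 0.28 after the second. The median of all expressed genes was -0.012 after the first. The first adjustment left 4 of the 9 above 0, namely Exosc3, Exosc1, Exosc6 and, at 0.0040, Exosc9, and the second left 6 above 0. The share of all expressed genes above 0 was not counted after either adjustment, so these counts have no share beside them. The second catalytic nuclease gene, Dis3, was at 36.66 FPKM in the library labelled Lig4-/- and 23.63 FPKM in the CH12F3 library.

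**Figure D4:**
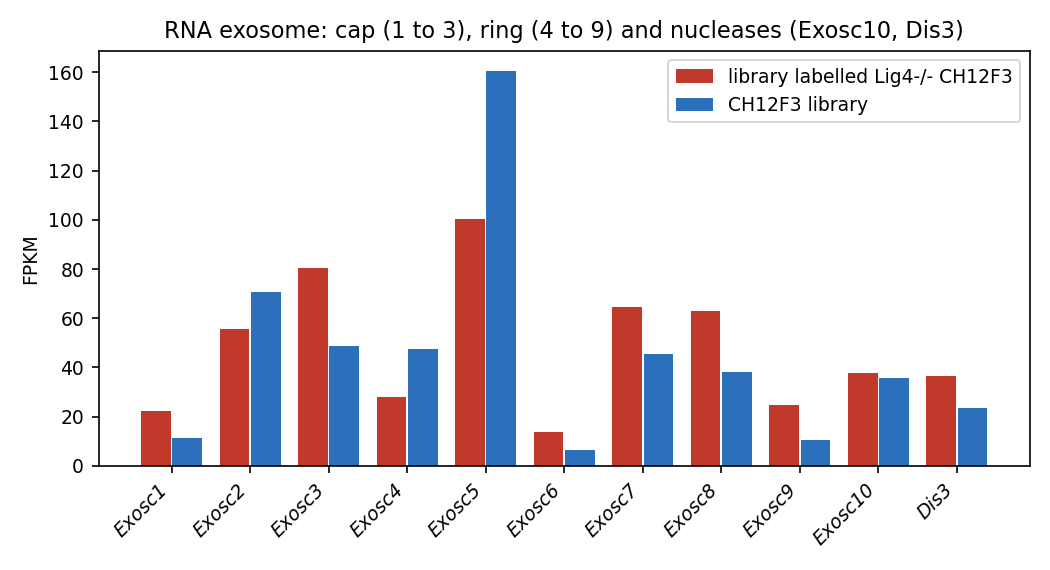
FPKM of the exosome cap, ring and nuclease genes in the library labelled Lig4-/- CH12F3 (red) and the CH12F3 library (blue), 1 library each and no error bars. Exosc5 is highest in both, and Exosc3 stands at 80.39 FPKM in the library labelled Lig4-/- and 48.64 FPKM in the CH12F3 library.

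The deaminases Apobec1 and Apobec3 were present at low levels in both libraries and differed by less than 2-fold. Apobec1 (ENSMUSG00000040613, chromosome 6, positions 122577792 to 122602444, minus strand) encodes the enzyme that edits a cytidine of apolipoprotein B mRNA. It was at 7.91 FPKM in the library labelled Lig4-/- and 5.95 FPKM in the CH12F3 library, a log2 ratio of 0.36 that turned to -0.18 and -0.23 after the adjustments. Apobec3 (ENSMUSG00000009585, chromosome 15, positions 79891659 to 79915906, plus strand) encodes a deaminase that restricts retroviruses. It was at 4.82 FPKM in the library labelled Lig4-/- and 5.92 FPKM in the CH12F3 library, a log2 ratio of -0.25 that was -0.15 after the first adjustment and -0.61 after the second. Apobec1 was 1.64 times as high as Apobec3 in the library labelled Lig4-/- and 1.01 times in the CH12F3 library. This ratio was not adjusted for G+C content, and the log2 ratios of both genes were close after the first adjustment, at -0.18 and -0.15.

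Both genes code for the zinc-binding deaminase motif that defines the family, and its coding stretches are printed to show what they share. They come from the longest protein-coding GENCODE M21 transcripts on GRCm38, 5′ to 3′ on the strand of the gene, with the codons for the histidine, glutamate, proline and cysteines of the motif in capitals. A search of the coding sequence found 1 such stretch in Apobec1, in exon 6 at chr6:122581507-122581614 (minus), and 2 in Apobec3, in exon 3 at chr15:79897704-79897817 and exon 7 at chr15:79906353-79906448 (plus).
Apobec1: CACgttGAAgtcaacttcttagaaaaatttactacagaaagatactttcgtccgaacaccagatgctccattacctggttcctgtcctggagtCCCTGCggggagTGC
Apobec3, first: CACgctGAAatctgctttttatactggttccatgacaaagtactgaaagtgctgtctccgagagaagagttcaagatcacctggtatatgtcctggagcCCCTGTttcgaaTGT
Apobec3, second: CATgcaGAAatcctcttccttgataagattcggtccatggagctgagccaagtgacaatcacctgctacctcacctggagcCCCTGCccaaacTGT

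The stretches measured 108 bases in Apobec1 and 114 and 96 bases in Apobec3, and each lay within 1 exon. The other relatives Apobec2 and Apobec4 were listed at 0.18 and 0 FPKM in the library labelled Lig4-/- and at 0.17 and 0.03 FPKM in the CH12F3 library. Of the RNA-binding partners of Apobec1 in editing, A1cf was listed at 0 in both libraries, Rbm47 was at 5.76 FPKM in the library labelled Lig4-/- and 1.51 FPKM in the CH12F3 library (log2 ratio 1.43, 0.99 after the first adjustment), and Syncrip was at 66.57 and 30.92 FPKM in the same order (1.08, -0.46 after it). The adenosine deaminases Adar and Adarb1 were at 21.35 and 2.01 FPKM in the library labelled Lig4-/- and at 27.74 and 0.86 FPKM in the CH12F3 library.

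Ptbp2 (ENSMUSG00000028134, chromosome 3, positions 119718742 to 119784466, minus strand) encodes a polypyrimidine tract-binding protein best known from neurons. It was at 5.16 FPKM in the library labelled Lig4-/- and 2.52 FPKM in the CH12F3 library, which is 2.05-fold higher as listed and a log2 ratio of 0.81 with 1 FPKM added. With 0.1 FPKM added the log2 ratio was 1.01, past 2-fold, where 25.3% of expressed genes were 2-fold higher and 5.49% 2-fold lower. The sign depended on the adjustment, at -0.92 with the longest transcript, which retains an intron and holds 34.2% G and C, and at -0.25 with the longest coding transcript, which holds 43.1%. The 13 annotated transcripts of Ptbp2 ran between 34.2% and 48.0% G and C, and the file gives 1 value for all of them. Its relatives Ptbp1 and Ptbp3 were at 166.76 and 17.69 FPKM in the library labelled Lig4-/- and at 145.52 and 2.76 FPKM in the CH12F3 library. Ptbp2 therefore made up 2.72% of the FPKM of the 3 genes in the library labelled Lig4-/- and 1.67% in the CH12F3 library, while Ptbp3 made up 9.33% and 1.83% in the same order. These shares were not adjusted for G+C content. After the first adjustment the log2 ratios were -0.92 for Ptbp2, 0.36 for Ptbp1 and 0.91 for Ptbp3. Which library had the larger Ptbp2 share therefore depended on the adjustment.

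Hmces (ENSMUSG00000030060, chromosome 6, positions 87913935 to 87936629, plus strand) was listed at 0.04 FPKM in the library labelled Lig4-/- and 0.07 FPKM in the CH12F3 library, both far under the threshold of 1 FPKM, so no direction is read from them. Of 21790 protein-coding genes, 642 were likewise above 0 and under 0.1 FPKM in both libraries, and 52.3% had a mean under 1 FPKM. The neighbouring genes were well represented. Copg1, which ends 340 bases before Hmces, was at 58.92 FPKM in the library labelled Lig4-/- and 58.95 FPKM in the CH12F3 library, and H1fx, the next coding gene downstream, was at 12.04 and 17.91 FPKM in the same order. Gm26636, annotated on the opposite strand across the start of Hmces, was listed at 0 in both. The deposited table also holds 1961 assembled loci without coordinates, and whether 1 of them carries fragments of Hmces was not tested.

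The start of the Hmces coding sequence is printed because its second codon encodes the cysteine that bonds to the abasic site. It lies in exon 1 of the longest coding transcript at chr6:87914513-87914572 (plus), with that codon in capitals.
Hmces: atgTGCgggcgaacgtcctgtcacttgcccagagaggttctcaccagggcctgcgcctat

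Other genes of the same pathways were set beside the 9 in 5 lists, of which 78 of 82 genes were expressed, and in the library labelled Lig4-/- 28 of these stood 2-fold higher or more and 1 stood 2-fold lower, beside 21.0% and 4.09% of all expressed genes. Of 23 genes of pausing and elongation, 10 were 2-fold higher and 0 were 2-fold lower, and the median log2 ratio was 0.54, a value that was 0.27 after the first adjustment and 0.22 after the second. In this and the following lists, an adjusted value of a gene is that after the first adjustment unless the second is named. Ell2, of the super elongation complex, was at 21.67 FPKM in the library labelled Lig4-/- and 2.95 FPKM in the CH12F3 library (2.52, adjusted 1.23), and the elongation factor gene Tcea1 at 44.57 and 8.20 FPKM (2.31, adjusted 1.18). Cdc73, Supt16, Ccnt1, Aff4, Rtf1, Leo1, Ccnt2 and Iws1 were the other 8 past 2-fold, and of them only Leo1, at 1.06, was still past it after the first adjustment. Of all expressed genes 5.76% were 2-fold higher after that adjustment. Nelfe and Paf1 were lowest, at 85.06 and 43.40 FPKM in the library labelled Lig4-/- and 152.71 and 68.64 FPKM in the CH12F3 library. Before adjustment, Supt5, Supt4a and Supt6 lay on the side of the 7 of 23 listed genes below 0, where 41.7% of all expressed genes lay below 0.

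Of 19 other exosome genes and cofactors, 7 were 2-fold higher and 0 were 2-fold lower, beside 21.0% and 4.09% of all expressed genes. The median was 0.71, a value that was -0.10 after the first adjustment and 0.21 after the second. After the first, 3 were 2-fold higher, namely Exosc6, Rbm7 and Zcchc8, and after the second only Exosc6 was. Exosc6 was not among the 7, at 0.997 before adjustment and 1.51 after the second. Of all expressed genes, 5.76% were 2-fold higher after the first adjustment and 5.42% after the second. Rbm7, which guides the exosome to nuclear transcripts, was at 38.02 FPKM in the library labelled Lig4-/- and 7.02 FPKM in the CH12F3 library (2.28, adjusted 1.23, and 0.83 after the second). C1d, a partner of Exosc10, was at 32.79 and 9.16 FPKM in the same order (1.73, adjusted 0.12), and Zfc3h1, Zcchc8, Tent4b, Exosc9 and Zcchc7 followed between 1.58 and 1.07. Exosc4 and Exosc5 were lowest, at -0.73 and -0.68.

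Of 15 RNA-binding and R-loop genes, 4 were 2-fold higher and 1 was 2-fold lower, beside 21.0% and 4.09% of all expressed genes. The median was 0.80, beside 0.17 for all expressed genes, and it was 0.19 after the first adjustment and 0.14 after the second. Topoisomerase I (Top1) was at 64.74 FPKM in the library labelled Lig4-/- and 9.64 FPKM in the CH12F3 library (2.63, adjusted 1.52). Ptbp3 (2.31, adjusted 0.91), the splicing factor gene Srsf1 (1.62, adjusted 0.36) and nucleolin (Ncl, 1.20, adjusted 0.18) were also 2-fold higher, and Rnaseh2a, of the RNase H2 complex, was at 84.71 and 173.93 FPKM (-1.03, adjusted -0.83). Ctnnbl1, whose protein binds AID, was next lowest at -0.57.

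Of 17 expressed adaptor, chaperone and kinase genes, 5 were 2-fold higher and 0 were 2-fold lower, beside 21.0% and 4.09% of all expressed genes. The median was 0.23, a value that was -0.0042 after the first adjustment and -0.032 after the second. The 5 were the nuclear exporter Xpo1 (2.08), the 14-3-3 gene Ywhaz (1.82), Rpa3 (1.36), Hsp90aa1 (1.18) and the cochaperone gene Dnaja1 (1.07). After the first adjustment only Ywhaz, at 1.17, was past 2-fold, where 5.76% of all expressed genes were 2-fold higher. Rpa1 and Hsp90ab1 were lowest, at -0.37 and -0.25. Of 4 expressed editing relatives and partners 2 were 2-fold higher, Rbm47 and Syncrip, and 0 were 2-fold lower, and the median was 0.89, a value that was 0.30 after the first adjustment and 0.28 after the second.

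**Figure D5:**
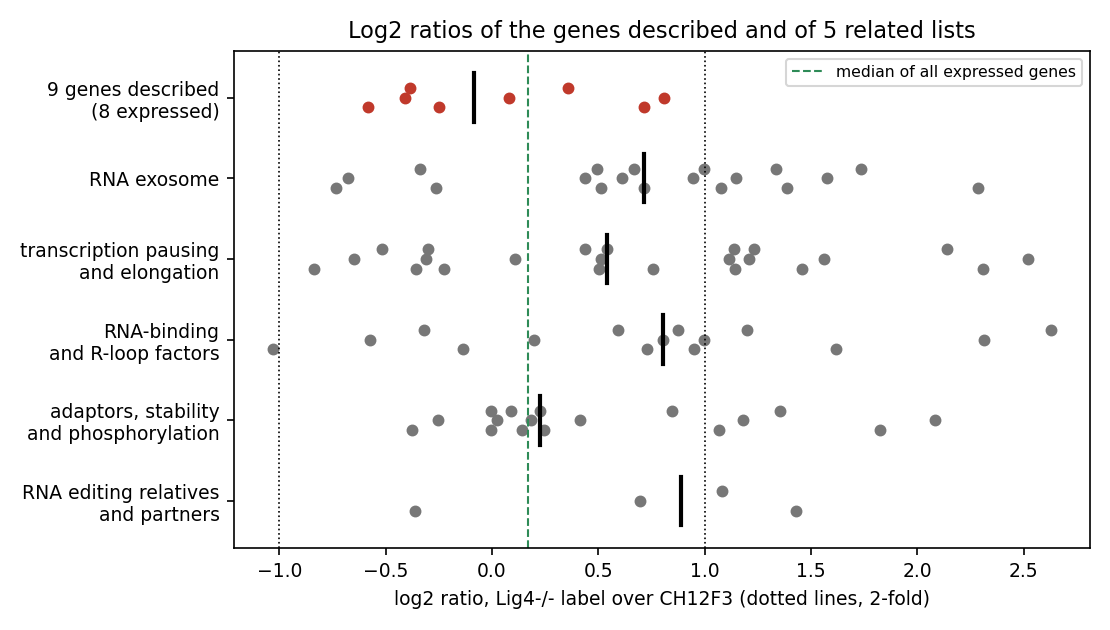
Log2 ratio (library labelled Lig4-/- over CH12F3) of the 8 expressed genes described (red) and of the expressed genes of 5 related lists (grey), 1 point per gene, with list medians as black bars. The 8 genes have a median of -0.09 and lie within 2-fold, and the lists have medians between 0.23 and 0.89, beside 0.17 for all expressed genes.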

How the data were processed

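Per the labels' protocols, libraries came from Trizol-extracted total RNA and a TruSeq RNA kit. The authors deposited FPKM values with 2 decimals for 53873 features, of which 51912 carry mouse Ensembl identifiers and 1961 are assembled loci. The submitters' processing notes name CASAVA, TopHat and the build GRCh38, a human build, so the build behind the values is uncertain, and the FPKM program, annotation, strand setting and read depth were not given in the sources used here. No coordinate of the table was used: symbols, positions and G+C contents came from GENCODE M21 (GRCm38), and promoters from RefSeq, where all 9 genes matched with 11 promoters. GENCODE M21 held 51633 of the 51912 identifiers, and the others took a name from another gene list or kept their identifier. Where identifiers shared a symbol, that of highest mean FPKM stood for it, leaving 51840 genes, and 11437 had a mean of at least 1 FPKM. The log2 ratio used a pseudocount of 1 FPKM, which understates differences of low genes. The G+C adjustment subtracted a lowess curve (fraction 0.3, statsmodels 0.14.6) fitted to 11404 expressed genes. Its trial on simulated data used a straight G+C trend and left out genes of low FPKM. That trial therefore cannot speak to the choice of transcript or to genes as low as Ptbp2. The members, lists and alternatives were chosen with earlier results of these data known. The text names all members, overlapping and near-identical genes, and of each list the 2 highest and 2 lowest expressed genes with any other 2-fold apart; the neighbours of Hmces, the exosome core, Adar, Adarb1, Apobec2, Apobec4, A1cf, Dis3 and Ptbp1 were added after their values were seen. Mpp6, a membrane scaffold gene put in the exosome list by its alias, was left out after its value was seen. Some genes of the lists are not reported here.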

Additional observations from a re-analysis of the deposited data

How the results depend on the processing

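No paired analysis was possible because each line had 1 library. Of the alternatives, 8 could move a single gene's ratio, and under these Apobec3, Supt5, Supt4a, Supt6 and Exosc3 kept the direction of their log2 ratio and stayed within 2-fold. The count of genes at least 2-fold higher, 0 of 8, was 1 with a pseudocount of 0.1 FPKM, where Ptbp2 was at 1.01, and 0 under the other alternatives, and the count at least 2-fold lower was 0 under each. Apobec1 turned to -0.18 with the G+C adjustment, -0.057 with that for G+C and length, and -0.23 with G+C of coding transcripts, and Ptbp2 turned to -0.92, -0.84 and -0.25 in the same order. Exosc10 turned to -0.091 with the overall median set to 0. The median of the expressed genes described, -0.09, was -0.10 and -0.041 with pseudocounts of 0.1 and 5 FPKM, -0.26 with the overall median set to 0, -0.0083 after rescaling to equal totals, -0.14 with equal upper quartiles, -0.041 without an expression filter, -0.25 with a mean of at least 5 FPKM, -0.23 with the G+C adjustment, -0.21 with that for G+C and length, and -0.27 with G+C of coding transcripts.

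In the 5 lists of other genes, the count at least 2-fold higher was 28. It became 18 with a pseudocount of 5 FPKM and 7 at a 4-fold threshold. The count was 8 with the G+C adjustment, 6 with that for G+C and length and 6 with G+C of coding transcripts. In the same order, 9.65%, 3.13%, 5.76%, 5.50% and 5.42% of all expressed genes were higher by as much. It was 32 with a pseudocount of 0.1 FPKM, 32 after rescaling to equal totals and 21 with the overall median set to 0. Under these 3 settings 25.3%, 23.1% and 16.4% of all expressed genes were higher by as much. The counts with the G+C adjustment and with G+C of coding transcripts include Exosc6, which was not among the 28. The 1 at least 2-fold lower became 2 with the overall median set to 0, and 0 with a pseudocount of 5 FPKM, after rescaling to equal totals, at a 4-fold threshold and under each of the 3 adjustments. Of all expressed genes 6.79% were lower by as much with the median set to 0, 2.20% with a pseudocount of 5 FPKM, 3.32% after rescaling, 0.752% at 4-fold, and 5.98%, 5.75% and 5.42% after the adjustments. Keeping Mpp6 in the exosome list gave 29 and 1. The cause of these shifts was not tested. Depth is unknown, so the precision of genes of a few FPKM, such as Ptbp2, Apobec1 and Apobec3, cannot be stated.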

Other observations

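Genes whose proteins work as partners did not always lie on the same side. The FACT chaperone genes, named after their values were seen, differed in direction: Supt16 was at 63.05 FPKM in the library labelled Lig4-/- and 20.68 FPKM in the CH12F3 library, whereas Ssrp1 was at 175.43 and 205.35 FPKM in the same order. After the first G+C adjustment their log2 ratios were 0.92 and -0.27. The 3 genes of the RNase H2 complex also differed, with Rnaseh2a at -1.03, Rnaseh2b at 0.80 and Rnaseh2c at -0.32, and at -0.83, 0.07 and 0.04 after the adjustment. The DSIF genes Supt5 and Supt4a, by contrast, lay on the same side both before and after it; this difference between complexes was not tested.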
